A study of Mus musculus with 6 samples.

Results

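The AP-1 and EGR immediate early factors are 10 genes of the deposited expression table, Fos, Fosb, Fosl1, Fosl2, Jun, Atf3, Egr1, Egr2, Egr3 and Ier2, chosen by name and matched to the table's Ensembl gene IDs. All 10 were found among the 56980 genes listed, and all 10 passed the filter on low values described below. They were examined in tumor-associated macrophages (TAMs) from WT and C5aR-/- mice. C5aR-/- mice lack the receptor for the complement fragment C5a in every cell type, so the comparison is not limited to macrophages. Both groups were young adult female C57BL/6 mice that had carried intraperitoneal tumors of ID8, a mouse ovarian cancer cell line, for 2 months. The TAMs were live CD45+CD11b+Ly6G-F4/80+ cells sorted from the tumors, with 3 WT and 3 C5aR-/- libraries. The labels do not say whether a library held 1 mouse or several, so the p-values measure the spread between these libraries. The study's legends state more mice per group than the libraries used here.

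Immediate early genes are transcribed within minutes of a stimulus from factors already present in the cell, without new protein synthesis. FOS and JUN proteins pair as the transcription factor AP-1, which binds the sequence TGACTCA, and EGR proteins are zinc finger factors that bind GC-rich sites such as GCGGGGGCG. In macrophages these factors respond to growth factors, to inflammatory and complement signals through MAP kinases, and to handling of the tissue, and their transcripts are short-lived.

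The promoters of Fos, Fosb, Jun and Egr2 are shown, and the likeness of these genes over the libraries is given below. Fos and Fosb were the most alike pair, Jun was close to Fosb, and Egr2 was most like Atf3 (Pearson r 0.89, and 0.70 with Fosb). Atf3, whose promoter is not shown, was closer to Fosb (0.85) than Egr2 was. The sequences are from RefSeq (GRCm38.p6), from 130 to 10 bases before the transcription start, and overlap 0 exons of the GENCODE M21 annotation. Of the 10 genes, 6 had a promoter sequence used here. Capitals mark matches, on either strand, to TGACG (the core of the cAMP response element), TGACATCA (an AP-1-like site), GCGGGGGCG (an EGR site) and the CArG box bound by serum response factor.
Fos, chr12:85473760-85473880, plus strand: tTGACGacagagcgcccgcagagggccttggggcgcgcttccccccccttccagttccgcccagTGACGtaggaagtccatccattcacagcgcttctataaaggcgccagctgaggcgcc
Fosb, chr7:19310055-19310175, minus strand: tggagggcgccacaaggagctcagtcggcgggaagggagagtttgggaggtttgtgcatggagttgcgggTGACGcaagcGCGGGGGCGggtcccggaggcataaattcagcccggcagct
Jun, chr4:95052232-95052352, minus strand: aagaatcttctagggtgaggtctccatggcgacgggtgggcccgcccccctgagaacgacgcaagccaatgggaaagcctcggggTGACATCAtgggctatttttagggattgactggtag
Egr2, chr10:67537739-67537859, plus strand: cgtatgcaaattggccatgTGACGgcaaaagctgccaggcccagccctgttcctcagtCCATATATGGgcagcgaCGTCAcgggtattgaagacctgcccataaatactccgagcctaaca
Fos held TGACG 129 and 66 bases before the start, and Fosb held it 60 bases before the start, next to a GCGGGGGCG 50 bases before the start. The Jun window held TGACATCA 45 bases before the start and no TGACG. The Egr2 window is shown for 1 of several annotated starts. It had a CArG box 72 bases before the start between matches to TGACG at 111 and 55 bases. The Egr2 window at chr10:67535369-67535489, which overlaps 1 exon, held no match. The Atf3 window, which overlaps 0 exons and is not shown, held no match either. The TGACG of Atf3 lay 7 bases before the start, outside the window. Among 32851 RefSeq promoters, the 250 bases before the start held TGACG in 17.8%, TGACATCA in 2.93%, GCGGGGGCG in 2.57% and a CArG box in 1.47%, and TGACTCA in 4.46%. A TGACTCA was found in 0 of the windows searched for these 6 genes, and the matches describe the letters of the windows and no binding.

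Expression is given as TPM (transcript abundance relative to a fixed library total), which is normalized for transcript length so that levels can be compared between genes. The genes fell into an abundant and a scarce set. Jun, Fos and Egr1 were among the most abundant transcripts of these libraries, with mean TPM over the 6 libraries of 1768, 1220 and 804. The libraries also held markers of other cell types, as given below, so these levels cannot be assigned to macrophages alone. Atf3, Ier2 and Fosb followed at 469, 432 and 386, and Fosl2 at 98.5. Each of these 7 genes lay at or above the 90.2nd percentile of the 14776 genes tested. Egr2, Fosl1 and Egr3 lay between the 13.3th and the 27.3th percentile, with mean TPM of 6.03, 4.78 and 2.41. The order of neighboring levels such as Atf3, Ier2 and Fosb was within the spread over libraries, whereas the abundant and the scarce set did not overlap in any library, since the lowest value of Fosl2 was 66.7 and the highest value in the scarce set, that of Fosl1, was 13.7.

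**Figure D1:**
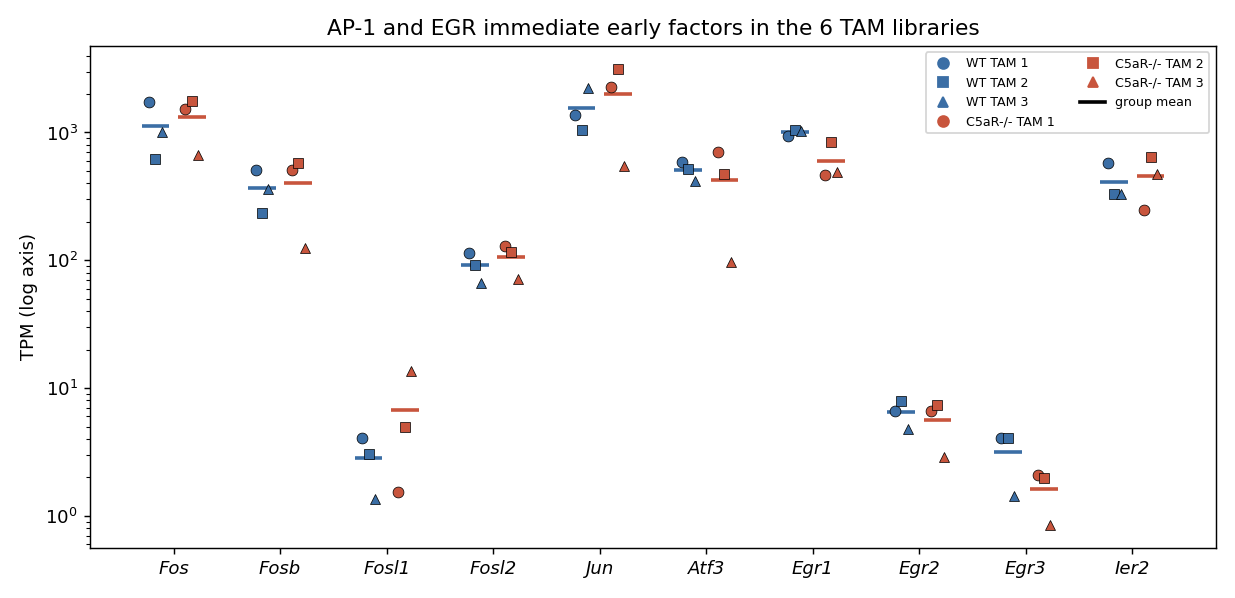
TPM of the 10 genes in each library on a log axis, with WT libraries in blue, C5aR-/- libraries in red, the marker shape giving the library number and the line the group mean. Egr1 is the gene whose groups do not overlap, and C5aR-/- TAM 3 (red triangles) is lowest for Fosb, Jun, Atf3, Egr2 and Egr3 and highest for Fosl1.

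To determine whether the loss of C5aR changed these genes, the 2 groups of TAMs were set against each other with limma on log2(TPM + 1), keeping each gene that reached a TPM of 1 in 3 or more libraries. C5ar1, the deleted gene, had a TPM from 16.2 to 86.5 in WT TAMs and from 0.05 to 0.38 in C5aR-/- TAMs (log2 difference -5.04, adjusted p = 0.0666). The stricter threshold was a Benjamini-Hochberg adjusted p under 0.05 together with a 2-fold change, and limma called 0 of the 14776 genes there (0%), although 2133 (14.4%) had an unadjusted p under 0.05. None of the 10 factors passed, with adjusted p from 0.233 to 0.967. The looser threshold, unadjusted p under 0.05 and again 2-fold, was passed by 733 genes (4.96%; 2.13% higher and 2.84% lower in C5aR-/- TAMs) and by 0 of the 10 factors. Their median log2 difference was 0.00, beside -0.05 over all genes tested, with 5 genes higher and 5 lower, where 44.5% of all genes tested were higher. Differences are C5aR-/- minus WT on the log2(TPM + 1) scale, which understates changes of scarce transcripts.

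**Figure D2:**
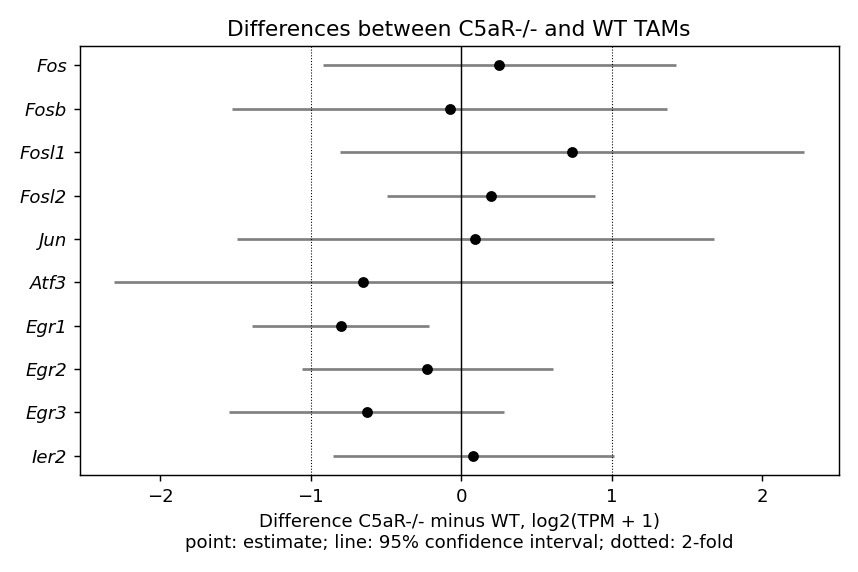
Difference of each gene between C5aR-/- and WT TAMs on the log2(TPM + 1) scale, with the estimate as a point, the 95% confidence interval as a line and 2-fold changes as dotted lines. The interval of Egr1 lies below 0, from -1.39 to -0.21, and the intervals of the other 9 genes include 0.

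Egr1 was the factor that differed most between the groups relative to its spread. Egr1 encodes an EGR transcription factor that is induced by MAP kinase signaling and lies on chromosome 18. Its TPM was 946, 1049 and 1028 in WT TAMs and 466, 843 and 491 in C5aR-/- TAMs. The 3 WT libraries lay close together and all 3 C5aR-/- libraries lay below them, with C5aR-/- TAM 2 nearest. The means were 1008 ± 54.3 and 599.9 ± 211 (SD, n = 3 each), which is 1.68-fold lower in C5aR-/- TAMs. The log2 difference was -0.80 (SE 0.25, 95% confidence interval -1.39 to -0.21), with an unadjusted p = 0.0149 and an adjusted p = 0.233 from limma. An exact two-sided permutation test gave p = 0.1, the smallest that 3 libraries against 3 allow. Egr1 was the 1 of the 10 factors without overlap between the groups, where 21.3% of all genes tested had none and 12.5% had none and were lower in C5aR-/- TAMs (8.84% higher). With 1 library left out the log2 difference was from -1.07 to -0.65, and without C5aR-/- TAM 2 it was past 2-fold (unadjusted p = 0.00079, adjusted p = 0.194).

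The other EGR factors were scarce. Egr2, a factor of macrophage and T cell differentiation (chr10:67535475-67542188), had a TPM of 6.65, 7.95 and 4.75 in WT and 6.58, 7.37 and 2.89 in C5aR-/- TAMs (log2 difference -0.22, SE 0.35, adjusted p = 0.807). Egr3 (chr14:70077203-70082614), which acts beside EGR2 in lymphocytes, had a TPM of 4.05, 4.08 and 1.42 in WT and 2.07, 1.96 and 0.85 in C5aR-/- TAMs (log2 difference -0.63, SE 0.38, adjusted p = 0.502). In both genes the libraries of the groups overlapped, and the third library of each group was the lowest. Egr1 made up from 98.2% to 99.4% of the summed TPM of Egr1 to Egr3 in every library. That sum was 957, 1061 and 1034 in WT and 474, 852 and 495 in C5aR-/- TAMs, and thus followed Egr1. Egr4 was listed at 0 in 5 of the 6 libraries and at 0.21 in WT TAM 2, and was not tested. Of the corepressors that bind EGR proteins, Nab2, itself an EGR1 target, had a TPM of 52.6, 59.7 and 77.7 in WT and 39.2, 52.3 and 44.8 in C5aR-/- TAMs. These groups did not overlap either (log2 difference -0.46, SE 0.19, adjusted p = 0.338), with 52.6 against 52.3 at the edge. Nab1 had a log2 difference of -0.09 (adjusted p = 0.836).

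Fos and Fosb, the stimulus-induced FOS partners of JUN, varied widely in both groups. Fos (chr12:85473890-85477273) had a TPM of 1727, 620.3 and 1001 in WT and 1535, 1770.2 and 666 in C5aR-/- TAMs. High and low libraries occurred in each group, and the lowest was WT TAM 2. The means were 1116 ± 562 and 1324 ± 582 (SD, n = 3 each), and the log2 difference was 0.25 (95% confidence interval -0.92 to 1.42, adjusted p = 0.851). Fosb (chr7:19302696-19310051) had a TPM of 509, 234 and 361 in WT and 506, 576 and 126 in C5aR-/- TAMs, with C5aR-/- TAM 3 the lowest. Its log2 difference was -0.08 (95% confidence interval -1.52 to 1.37, adjusted p = 0.967), and without C5aR-/- TAM 3 it was 0.62. These intervals include changes of more than 2-fold in either direction for Fosb, and upward for Fos, so a change of that size was not excluded.

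The FOS-related antigens, which last longer in stimulated cells and lack the strong activation domain of FOS, had unlike ranges. Fosl2 (chr5:32135801-32157842) had a TPM of 115, 92.1 and 66.7 in WT and 130.4, 116 and 70.8 in C5aR-/- TAMs, and its libraries spanned 1.95-fold, the narrowest range of the 10 genes (log2 difference 0.20, SE 0.29, adjusted p = 0.792). Fosl1 (chr19:5447547-5455946) had a TPM of 4.07, 3.06 and 1.35 in WT and 1.53, 5 and 13.7 in C5aR-/- TAMs. The range of Fosl1 was 10.1-fold, the widest of the 10 genes, and rested on C5aR-/- TAM 3. Its log2 difference was 0.73 (SE 0.65, adjusted p = 0.646), was 0.10 without C5aR-/- TAM 3, and was 1.36 without C5aR-/- TAM 1 (unadjusted p = 0.0315). As a share of the summed FOS family TPM, Fosl1 was from 0.0704% to 0.322% in 5 libraries and 1.56% in C5aR-/- TAM 3, and Fosb was 14.4% in that library and from 21.6% to 25.2% in the others.

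Jun was the most abundant of the 10 genes, and the makeup of its family stood apart in 1 library. JUN is the core AP-1 subunit and pairs with FOS proteins or with itself. Jun (chr4:95049034-95052222) had a TPM of 1360.1, 1053 and 2232 in WT and 2265, 3154 and 544 in C5aR-/- TAMs. The highest and the lowest value were both in C5aR-/- TAMs, a 5.8-fold range, and the log2 difference was 0.09 (95% confidence interval -1.49 to 1.68, adjusted p = 0.963). It was 0.86 without C5aR-/- TAM 3 and -0.41 without C5aR-/- TAM 2. Junb, a weaker activator that can oppose JUN, had a TPM of 1172, 674 and 769.5 in WT and 776, 1983 and 1742 in C5aR-/- TAMs (log2 difference 0.71, SE 0.40, adjusted p = 0.460). The ratio of Jun to Junb was 1.16, 1.56 and 2.90 in WT and 2.92, 1.59 and 0.31 in C5aR-/- TAMs. Thus 5 libraries held more Jun than Junb and C5aR-/- TAM 3 held more Junb, with no difference between the groups beyond this spread (exact permutation test of the ratio, p = 0.9). Jund, the constitutive member, was from 10.3% to 17.8% of the JUN family in each library.

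**Figure D3:**
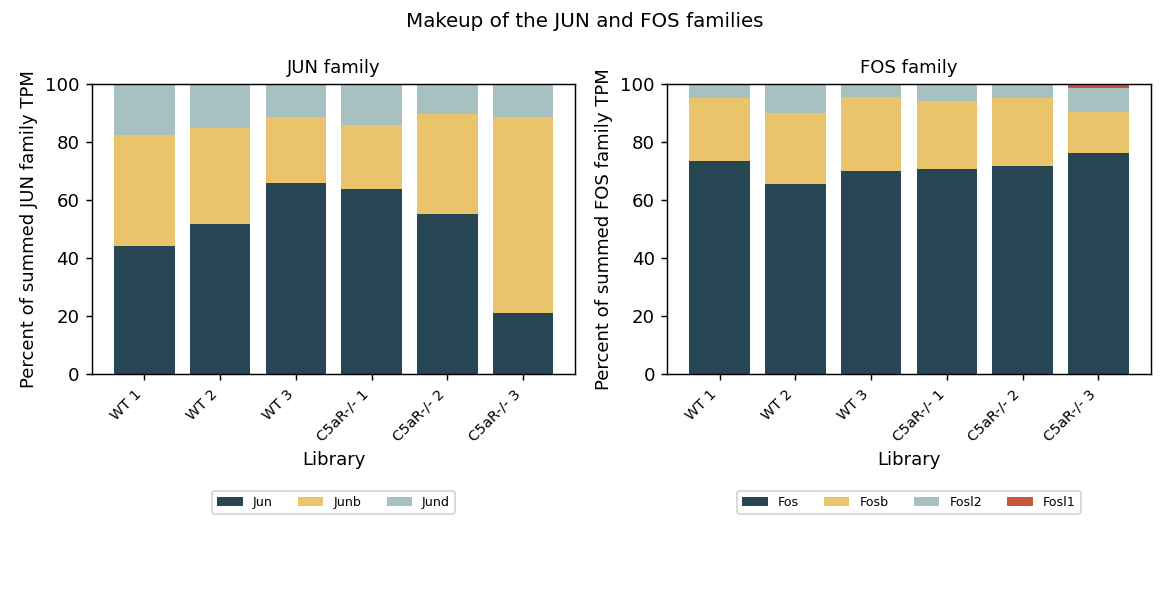
Share of each gene in the summed TPM of the JUN family (left) and the FOS family (right) in each library, as stacked bars that start at 0 and reach 100%. Junb is 67.6% of the JUN family in C5aR-/- TAM 3 and from 21.8% to 38.0% in the other 5 libraries, and Fos is from 65.3% to 76.0% of the FOS family throughout.

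Atf3 and Ier2 did not differ between the groups beyond the spread of the libraries. Atf3 (chr1:191170296-191218039), a stress-induced ATF factor that restrains inflammatory transcription in macrophages, had a TPM of 591, 519 and 417 in WT and 709, 477 and 96.9 in C5aR-/- TAMs. Apart from C5aR-/- TAM 3 the libraries stayed within the range from 417 to 709. The log2 difference was -0.65 (SE 0.69, adjusted p = 0.709), and without C5aR-/- TAM 3 it was 0.21. Ier2 (chr8:84661331-84662852), a nuclear immediate early protein, had a TPM of 576, 331 and 329.8 in WT and 247, 641 and 470.1 in C5aR-/- TAMs, with both extremes in C5aR-/- TAMs (log2 difference 0.08, SE 0.39, adjusted p = 0.946). Ier2 and Junb lie in a stretch of chromosome 8, from Ddx39 to Heatr3, whose other genes were high in 2 of the libraries. The median deviation of the 57 other tested protein-coding genes of this stretch from the WT mean was -0.26, 1.43 and 1.74 (log2) in C5aR-/- TAM 1, 2 and 3. The deviation of Ier2 in these libraries was -0.69, 0.69 and 0.24, and that of Junb was -0.13, 1.23 and 1.04. Both genes had their lowest C5aR-/- value in C5aR-/- TAM 1, as the stretch did. Among the C5aR-/- libraries both were highest in C5aR-/- TAM 2, whereas the stretch was highest in C5aR-/- TAM 3. In WT TAM 1 the deviation was 0.53 for Ier2, 0.47 for Junb and 0.03 for the stretch. The part of the stretch in the levels of Ier2 and Junb was not tested.

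The spread within groups was large for several of the factors, among them the scarce Fosl1. The residual SD of Atf3, Jun, Fosl1, Fosb and Fos lay between the 90.9th and the 96.4th percentile of all genes tested. That of Ier2, Egr3, Egr2 and Fosl2 lay between the 71.9th and the 84.4th, and that of Egr1 at the 59.9th. C5aR-/- TAM 3 was the lowest library for 5 of the 10 genes, and the median of the 10 deviations from the WT mean was -0.97 there, against 0.27 and 0.53 in C5aR-/- TAM 1 and 2 and -0.05 over all genes tested in the same library. Over the 6 libraries, the most alike pairs were Fos and Fosb (Pearson r of log2(TPM + 1) 0.91), Fosb and Jun (0.89) and Atf3 and Egr2 (0.89), and the least alike were Fosl1 and Atf3 (-0.81). These values describe 6 libraries that differed in their cell type markers, as given below, and carry no test. The 10 other genes most like the mean standardized pattern of the factors, among 9249 tested genes with a mean TPM of at least 10, were Rnf13, Pias1, Cask, Lamp2, Snx13, Gnb1, Cst3, Il1b, Ldlrad3 and Rhob, with r from 0.951 to 0.994. Of these, Rhob, a small GTPase gene, is also an immediate early gene and Il1b encodes an inflammatory cytokine.

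The other AP-1 genes did not pass either threshold. Of 11 further AP-1 and small Maf genes, all were tested, 0 passed the unadjusted threshold, 0 had groups without overlap, and the median log2 difference was 0.12. The largest differences after Junb were those of the small Maf genes Maff and Mafk, whose proteins pair with other bZIP factors (log2 difference 0.46 and 0.45, adjusted p = 0.451 and 0.349), and of Batf3, known for its role in dendritic cells (0.39, adjusted p = 0.547).

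Among 27 other immediate early genes, the C5aR-/- libraries lay lower for some and higher for others. Of the 27, 3 passed the unadjusted threshold (11.1%, beside 4.96% of all genes), and 7 had groups without overlap, beside 21.3% of all genes, which is close to that share. Nr4a1, which encodes the orphan nuclear receptor NUR77, had a TPM of 349, 274 and 227 in WT and 89.3, 164 and 34.5 in C5aR-/- TAMs. It was lower in all 3 C5aR-/- libraries than in any WT library (log2 difference -1.79, SE 0.53, unadjusted p = 0.0124, adjusted p = 0.224) and passed the unadjusted threshold under all 13 alternatives. Klf2, a Krüppel-like factor that restrains myeloid activation, had a TPM of 106, 35.5 and 39.7 in WT and 19.3, 26.7 and 21.4 in C5aR-/- TAMs (log2 difference -1.22, SE 0.41, unadjusted p = 0.0218, adjusted p = 0.267). Klf2 depended on WT TAM 1, without which the difference was -0.73, and it also missed the threshold without C5aR-/- TAM 1 (unadjusted p = 0.0532) or C5aR-/- TAM 3 (0.0515).

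Ccn2, which encodes a matrix-associated growth factor induced by serum and YAP, lay higher, with a TPM of 185, 149 and 241 in WT and 416, 469.9 and 497 in C5aR-/- TAMs (log2 difference 1.29, SE 0.20, unadjusted p = 0.000396, adjusted p = 0.0801). It passed the unadjusted threshold under all 13 alternatives. The stress kinase gene Plk2 had a TPM of 258, 172 and 164 in WT and 397, 416 and 353 in C5aR-/- TAMs, and Myc, the growth regulator, had 125, 118 and 80.5 against 245, 155 and 230.5. Both were higher without overlap and just under 2-fold (log2 difference 0.996 and 0.956, adjusted p = 0.121 and 0.177). Nr4a2, a relative of Nr4a1, and Btg1, an antiproliferative gene, were also higher without overlap (log2 difference 0.66 and 0.43).

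**Figure D4:**
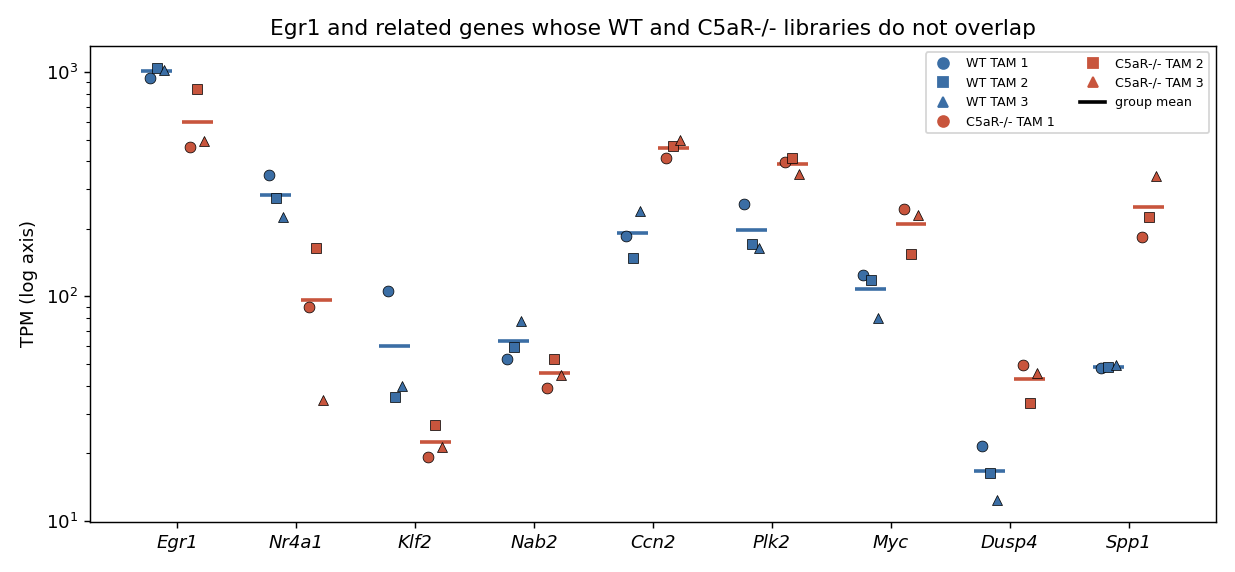
TPM of Egr1 and of 8 related genes whose WT (blue) and C5aR-/- (red) libraries do not overlap, on a log axis, with lines at the group means. Egr1, Nr4a1, Klf2 and Nab2 lie lower in C5aR-/- TAMs, and Ccn2, Plk2, Myc, Dusp4 and Spp1 lie higher.

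The MAPK phosphatases, which are induced by MAP kinases and switch them off, had 5 of 7 genes higher in C5aR-/- TAMs and a median log2 difference of 0.42, and 1 passed the unadjusted threshold, beside 2.13% of all genes that passed as higher. The call was that of the single gene Dusp4, a nuclear phosphatase of ERK, p38 and JNK kinases, with a TPM of 21.4, 16.2 and 12.3 in WT and 49.5, 33.3 and 45.7 in C5aR-/- TAMs (log2 difference 1.32, SE 0.24, unadjusted p = 0.00116, adjusted p = 0.103). It passed under all 13 alternatives. Dusp1, the most abundant, had a TPM of 877, 300.5 and 458 in WT and 1246, 1049.9 and 493 in C5aR-/- TAMs, with overlapping groups (log2 difference 0.80, adjusted p = 0.496). Dusp6, specific for ERK, and Dusp10 had log2 differences of 0.76 and 0.42 (adjusted p = 0.399 and 0.695).

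Genes upstream of the factors were closer together. Of 18 genes of MAP kinases and of serum response factor and its cofactors, 0 passed the unadjusted threshold, and the median log2 difference was 0.09. Srf itself had a log2 difference of 0.05 (95% confidence interval -0.29 to 0.39). Elk3, a ternary complex factor that binds beside SRF, had a TPM of 7.51, 5.17 and 6.93 in WT and 8.91, 12.4 and 17.9 in C5aR-/- TAMs, and Mrtfa, an actin-regulated SRF cofactor, had 19.2, 21.9 and 21.2 against 34.5, 26.5 and 27.6. Neither gene's groups overlapped (log2 difference 0.87 and 0.48, adjusted p = 0.255 and 0.257). The kinase genes Mapk9 and Rps6ka3 had log2 differences of -0.43 and -0.40 (adjusted p = 0.453 and 0.490).

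Genes known as targets of AP-1 or EGR factors were mostly higher. Of 15 such genes 14 were tested, 11 were higher in C5aR-/- TAMs, the median log2 difference was 0.58, and 3 passed the unadjusted threshold (21.4%, beside 4.96%). Spp1, which encodes osteopontin, had a TPM of 48.0, 48.3 and 49.6 in WT and 184, 226 and 344 in C5aR-/- TAMs (log2 difference 2.30, SE 0.23, unadjusted p = 2.8e-05, adjusted p = 0.0666). Vegfa, the angiogenic factor, had 52.9, 65.7 and 47.1 against 70.7, 152 and 217 (1.26, SE 0.40, unadjusted p = 0.0161, adjusted p = 0.239), and it missed the threshold without WT TAM 3 (unadjusted p = 0.0515), without C5aR-/- TAM 2 (0.0525), or without C5aR-/- TAM 3, where the difference was 0.91. Areg, an EGF receptor ligand, was scarce, with a TPM from 0.21 to 2.76 in WT and from 3.22 to 6.11 in C5aR-/- TAMs (1.18, unadjusted p = 0.0385), and it missed the threshold without any of WT TAM 2 (unadjusted p = 0.0535), WT TAM 3 (0.0741), C5aR-/- TAM 2 (0.0797) or C5aR-/- TAM 3 (0.11). The collagenase gene Mmp13 and the heme oxygenase gene Hmox1 had log2 differences of 1.75 and 1.33 with overlapping groups (adjusted p = 0.437 and 0.588). These genes answer to other factors as well, and the list does not measure AP-1 or EGR activity.

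Inflammatory genes that are induced along with these factors had 11 of 12 genes lower in C5aR-/- TAMs and a median log2 difference of -0.51, and 0 passed the unadjusted threshold. Il6 had a TPM of 118, 38.6 and 3.59 in WT and 12.7, 8.42 and 0.25 in C5aR-/- TAMs (log2 difference -2.36, SE 1.36, adjusted p = 0.474), and the neutrophil chemokine Cxcl1 had 931, 478.5 and 311 against 517, 223 and 33.0 (-1.72, SE 0.97, adjusted p = 0.466). For both, as for Ccl4 and Tnf (-1.14 and -0.91, adjusted p = 0.554 and 0.632), the first library of each group was the highest and the third the lowest, and the groups overlapped.

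Heat shock chaperones, which like immediate early genes respond to stress of the cells, were lower in C5aR-/- TAMs for 13 of 13 genes, with a median log2 difference of -0.98, where 55.5% of all genes were lower. Of the 13, 4 passed the unadjusted threshold, beside 2.84% of all genes that passed as lower. Hspa1a, an inducible HSP70 gene, had a TPM of 38.9, 1067 and 839 in WT and 17.5, 92.0 and 17.2 in C5aR-/- TAMs, so that WT TAM 2 and 3 stood apart from the other 4 libraries (log2 difference -3.39, unadjusted p = 0.0396, adjusted p = 0.322). Hspa1b, its near-identical neighbor, whose reads may be shared with it, followed the same pattern (-3.67, adjusted p = 0.332). Both missed the threshold without WT TAM 2 (unadjusted p = 0.123 and 0.134), WT TAM 3 (0.121 and 0.132), C5aR-/- TAM 1 (0.094 and 0.117) or C5aR-/- TAM 3 (0.103 and 0.0847). Dnaja1 and Bag3 were the other 2 genes (-1.04 and -1.04). Dnaja1 was under 2-fold without WT TAM 3 (-0.88) or C5aR-/- TAM 3 (-0.96), and Bag3 missed the threshold without WT TAM 2 (unadjusted p = 0.0921), WT TAM 3 (0.0908), C5aR-/- TAM 2 (0.0599) or C5aR-/- TAM 3 (0.0821). In addition, the HSP110 gene Hsph1 and Dnajb1 had differences of -1.82 and -1.78 (adjusted p = 0.416 and 0.417). The summed TPM of the 13 genes was 6105, 13480 and 12080 in WT and 4490, 6297 and 6375 in C5aR-/- TAMs. Egr1 was highest in WT TAM 2 and 3 (TPM 1049 and 1028), the libraries with the highest chaperone sums. In WT TAM 1 Egr1 was 946 with a chaperone sum of 6105, which lies within the C5aR-/- range. The chaperones' part in the level of Egr1 was not tested.

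The labelled cell type was checked against markers. All 12 macrophage markers were expressed, 0 were at 0 in any library, and their summed TPM was from 2701 to 9376 in WT and from 2689 to 9347 in C5aR-/- TAMs, highest in the first and lowest in the third library of each group. Adgre1, which encodes F4/80, was between 25.4 and 114 in all libraries. Epithelial markers were abundant as well, with a summed TPM from 1882 to 2079 in WT and from 1807 to 2315 in C5aR-/- TAMs. These sums came mostly from Krt8, Krt18 and Krt19, whereas Epcam and Cdh1 reached at most 6.33 and 5.56 in any library. Of the 7 epithelial markers tested, 4 were lower in the C5aR-/- libraries and 3 higher, and the median over the 7 was -0.09 (log2). Cldn3 and Krt8 were higher without overlap (log2 difference 1.41 and 0.62, adjusted p = 0.0666 and 0.14). Krt7 and Krt19 were lower with overlapping groups (-0.69 and -0.45, adjusted p = 0.679 and 0.560). In bulk RNA, fewer cells of a type and less RNA per cell cannot be told apart. Among the marker lists, the sums of the neutrophil and mesothelial lists did not overlap between the groups. The 8 neutrophil markers summed to between 634 and 2356 in WT and between 31.2 and 399.7 in C5aR-/- TAMs, with S100a8 at a log2 difference of -3.12 (adjusted p = 0.224) and Ly6g, which defines the gate, at 0 in 2 C5aR-/- libraries and at most 4.94 elsewhere. The 6 mesothelial markers summed to between 1068 and 1448 in WT and between 766 and 1066 in C5aR-/- TAMs, with Lrrn4 at -1.96 and Msln at 0.88. Of the 5 mast cell markers, 4 were lower without overlap, beside 12.5% of all genes, with Mcpt4 at 0 in 2 of the C5aR-/- libraries (-3.89), and Kit was higher, so that their sums overlapped.

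The sums of the remaining lists overlapped. They were from 404 to 605 in WT and from 439 to 557 in C5aR-/- TAMs for fibroblast markers, from 84.3 to 495.5 and from 32.8 to 443 for B cell markers, from 20.5 to 88.5 and from 19.3 to 49.9 for T and NK cell markers, from 12.8 to 18.4 and from 10.1 to 27.5 for endothelial markers, and from 38.3 to 43.5 and from 29.0 to 69.0 for dendritic cell markers. C5aR-/- TAM 3 was the library in which Fosb, Jun, Atf3, Egr2 and Egr3 were lowest. It also had the lowest sum for 8 of the 10 marker lists (all but the fibroblast and mast cell lists). The fibroblast markers were mixed in that library. Col1a1 was 236 there and from 1.21 to 43.3 in the other libraries, and Col3a1 (27.2) and Pdgfra (26.7) were also highest there. Dcn was lowest there (180), and Col1a2 (2.46) was below every WT library. Egr1 was 466 in C5aR-/- TAM 1, whose macrophage sum was 9347, and 491 in C5aR-/- TAM 3, whose macrophage sum was 2689. The part of the macrophage, epithelial, neutrophil, mesothelial and mast cell genes in the difference of Egr1 was not tested.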

How the data were processed

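The deposited TPM values were made by the authors from poly(A) RNA sequencing of sorted TAMs. By the paper, reads were trimmed with fastp, aligned with HISAT2 and quantified as FPKM with StringTie. The submitters' processing notes also list RSEM, DESeq2 and the build mm10. Whether StringTie or RSEM made the TPM values is not stated. Versions and annotation release are not given in the sources used here. TPM keeps no depth, so no counting error can be given, and a TPM of 0 can be a failed estimate. The study's count-based tests could not be run on TPM.

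Gene IDs were matched to symbols in GENCODE M21 (GRCm38). The test was limma 3.58.1 in R 4.3.3 (lmFit, eBayes with trend) on log2(TPM + 1), keeping genes that reached a TPM of 1 in 3 or more of the 6 libraries, with Benjamini-Hochberg adjustment over all 14776 genes. Single values were compared with exact permutation tests. Tables were made with Python, pandas and numpy. On simulated data with 200 of 14776 genes changed, the stricter threshold (adjusted p under 0.05 and 2-fold) called 31 at a log2 difference of 1 and 167 at 2. At a difference of 1 the fold cut also removed estimates that fell below it. It called 0 and 6 unchanged genes. The changed genes were drawn from those with a mean log2(TPM + 1) above 3, which leaves out Egr2, Fosl1 and Egr3.

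The 10 genes and all lists were chosen with earlier results of these data known. Named genes are the 10 factors, C5ar1, up to 4 genes per list with the largest difference, needed markers and the 10 most alike genes. Jund, Srf, Myc, Nr4a2, Btg1, Areg, Dnaja1, Bag3 and Kit were named after their values were seen. Alternatives were leaving out each library, quantile normalization, median-of-ratios scaling, a replicate block, eBayes without trend, a minimum TPM of 5 or none, and a pseudocount of 0.1.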

Additional observations from a re-analysis of the deposited data

How the results depend on the processing

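Egr1, Egr3 and Fosl1 kept their direction under all alternatives that gave a value, and the other 7 factors changed direction only when a library was left out. Of 128 member values under the alternatives, 114 kept their direction and 14 reversed, and 0 passed an adjusted p of 0.05. With 1 library left out, the log2 differences ranged from -0.11 to 0.69 for Fos, from -0.47 to 0.62 for Fosb, from -0.0069 to 0.46 for Fosl2, from -0.41 to 0.86 for Jun, from -1.22 to 0.21 for Atf3, from -0.43 to 0.12 for Egr2 and from -0.22 to 0.46 for Ier2. Under the 7 other settings the ranges were narrower, for example from 0.01 to 0.14 for Jun and from 0.18 to 0.30 for Fos. The count of all genes at an adjusted p was 2 with eBayes without trend and from 0 to 356 with 1 library left out, highest without C5aR-/- TAM 1. The unadjusted count was 475 with a minimum TPM of 5, where fewer genes were tested and Fosl1 and Egr3 were not, and from 567 to 1266 with 1 library left out, again highest without C5aR-/- TAM 1. The count of factors past the unadjusted threshold was from 0 to 1, namely Fosl1 without C5aR-/- TAM 1 and Egr1 without C5aR-/- TAM 2. C5ar1 was from -5.63 to -4.45 with 1 library left out, and passed the adjusted threshold without C5aR-/- TAM 1 (-5.16, adjusted p = 0.0221). The cause of these changes was not tested. The labels do not say whether the libraries' numbers pair them. Same-numbered libraries correlated at 0.19, -0.01 and 0.27 in their deviations from the group means. For numbers 1 and 3 the WT library correlated most with its same-numbered C5aR-/- library, and for number 2 it did not. With so few libraries these correlations cannot decide whether the libraries are paired. With the replicate number as a block, 811 genes passed the unadjusted threshold and 0 of the 10 factors, and the smallest adjusted p among them was 0.219 for Egr1. Under this block Il6, Cxcl1, Ccl4, Hmox1, Hsph1 and Dnajb1 also passed the unadjusted threshold (limma, unadjusted p from 0.000341 to 0.019) and Areg did not (0.069), so that 3 of 12 inflammatory genes and 6 of 13 chaperones passed. The call of Areg was also lost in limma with no filter (unadjusted p = 0.0579) and with a pseudocount of 0.1 (0.0652), those of Hspa1a and Hspa1b with no filter (0.0506 and 0.0556), that of Hspa1b with eBayes without trend (0.0502), and those of Bag3 and Dnaja1 under median-of-ratios scaling, where both were just under 2-fold (-0.985 and -0.994).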
